A study of Mus musculus with 24 samples.

Results

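Dbp, Tef and Hlf encode the PAR bZIP transcription factors, and Nfil3 encodes a bZIP factor that competes with them for the same DNA element. These 4 genes were taken by their symbols from the 53465 genes of the count table and read in all 24 brain endothelial libraries. The libraries came from male and female mice of the C57BL/6J strain kept in a 12:12 light:dark cycle, 1 library for each mouse. Controls were Bmal1fl/fl mice and mutants were Bmal1fl/fl; Tie2cre mice, so both genotypes carried the floxed Bmal1 allele and only mutants carried Cre. In mutants the Tie2 promoter drives Cre in endothelial cells and also in blood lineage cells, which limits the model as one of endothelial deletion alone. Cells positive for the endothelial surface protein CD31 were sorted from the brain every 4 h from ZT2 to ZT22, where lights were on from ZT0 to ZT12, with 2 mice of each genotype at each of the 6 times. The question of this comparison was how the daily output factors of the clock behave in the endothelium of the blood-brain barrier when Bmal1 is deleted there.

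DBP, TEF and HLF carry a proline and acidic amino acid rich (PAR) domain beside the basic leucine zipper through which they dimerize. They bind the D-box element and activate transcription, and NFIL3, also called E4BP4, binds the same element and represses. In the clock, BMAL1 and CLOCK activate Dbp through E-boxes, whereas Nfil3 is repressed by the REV-ERB proteins at ROR elements, so that activators and repressor peak at opposite times of day in tissues such as the liver, where the PAR bZIP factors are known for driving detoxification genes.

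The sequences around the start sites are shown because these elements are the ones the clock is known to use on this family. RefSeq (GRCm38.p6) gave 5 start windows of 300 bases for the 4 genes, 250 before and 50 after each start: 2 for Tef and 1 each for Dbp, Hlf and Nfil3. They were searched on both strands for the E-box CACGTG, the E'-box CACGTT, the D-box core TTANGTAA, the ROR element core TAGGTCA and the cyclic AMP response element TGACGTCA, and no 2 matches overlapped. The E-box was found in both Tef windows, 127 and 138 bases before the start, and in 7.15% of all 32851 windows. The ROR element core was found in Nfil3 on the reverse strand, 12 bases before the RefSeq start, and in 2.61% of all windows. The 30 bases around this match, like those around the upstream Tef match, lie wholly within an annotated GENCODE exon. Both matches are thus inside the gene as GENCODE annotates it, after its GENCODE start. The cyclic AMP response element was found in Hlf, 9 bases before the start, and in 1.79% of all windows. The Dbp window held none of the 5 motifs, and the 150 bases before its RefSeq start also lie wholly in annotated GENCODE exon. The D-box core (2.32% of all windows) and the E'-box (4.68%) matched in 0 of the 5 windows, which says only that those letters were not in these stretches. Capitals mark the matched bases, each stretch is written 5′ to 3′ on the strand of its gene, and stretches that overlap an annotated exon are cut to 30 bases.
Tef, upstream start, chr15:81802534-81802563, plus strand: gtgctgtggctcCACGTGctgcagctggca
Tef, downstream start, chr15:81811264-81811413, plus strand: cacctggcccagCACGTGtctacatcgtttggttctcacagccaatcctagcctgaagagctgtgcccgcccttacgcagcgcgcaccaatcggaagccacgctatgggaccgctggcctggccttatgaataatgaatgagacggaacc
Hlf, chr11:90390918-90391067, minus strand: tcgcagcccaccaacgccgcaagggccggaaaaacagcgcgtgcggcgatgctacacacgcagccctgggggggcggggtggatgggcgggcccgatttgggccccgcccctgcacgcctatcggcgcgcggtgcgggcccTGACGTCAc
Nfil3, chr13:52981033-52981062, minus strand: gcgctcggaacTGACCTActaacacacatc

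The values are gene counts that the authors normalized to similar totals, 6136404 to 6648311 reads per mouse, so the original depth is no longer in them. All 10 endothelial markers were detected in both genotypes and summed to 76064 to 120908 reads per mouse. None of the markers of pericytes, astrocytes, oligodendrocytes, neurons, microglia or red blood cells was at 0 in either genotype, and the genotypes overlapped in the sum of each list, as for microglia with 621 to 16139 reads in controls and 727 to 19170 in mutants. The 8 libraries of ZT6 and ZT18 stood apart in both genotypes: microglial markers summed to 621 to 1184 reads there against 6968 to 19170 at the other times, and the mitochondrial share was 2.68% to 3.90% against 5.78% to 17.4%. Their library numbers run consecutively and lead on to those of most other libraries, and a batch of these 8 cannot be told apart from the time of day. The first ZT2 control and both ZT14 mutants carry numbers of a separate series, and the part of this in the differences was not tested. The level, cosine and rhythm-difference tests are also given without the ZT6 and ZT18 libraries, but no meta2d test without all 8 of them was run. Arntl, the gene name of Bmal1, had 1 to 468 reads in controls and 81 to 354 in mutants, and its level did not pass the genotype test of edgeR (a log2 fold change of 0.96 with a standard error of 0.43, adjusted p = 0.639). The count covers the whole gene, including exons outside the deleted one, and therefore does not check the deletion. In these bulk samples fewer cells of a type and less RNA per cell cannot be told apart.

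Dbp (ENSMUSG00000059824, chr7:45705088-45710203, plus strand of GRCm38) encodes the D-site binding protein, the founding PAR bZIP activator. In control mice it had 71 and 38 normalized reads (ZT2), 1197 and 861 (ZT6), 736 and 718 (ZT10), 215 and 396 (ZT14), 68 and 159 (ZT18), and 60 and 70 (ZT22). In mutants it had 53 and 94 reads (ZT2), 87 and 216 (ZT6), 272 and 181 (ZT10), 135 and 130 (ZT14), 42 and 56 (ZT18), and 26 and 52 (ZT22). The control mice were high in the second part of the light phase and low around lights on, and both mutants lay below both controls at 5 of the 6 times, all but ZT2, where the genotypes overlapped. Of all 15493 genes tested, both mutants lay below both controls in 18.8% at ZT2, 19.4% at ZT6, 15.6% at ZT10, 14.4% at ZT14, 17.7% at ZT18 and 14.1% at ZT22. The highest control mean, at ZT6, was 18.9-fold the lowest, whereas in mutants the highest mean, at ZT10, was 5.81-fold the lowest. Sphk2 overlaps Dbp on the opposite strand with up to 176 reads, and since the use of strand in counting is not stated, reads of the pair cannot be told apart.

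Tef (ENSMUSG00000022389, chr15:81802421-81826863, plus strand) encodes thyrotroph embryonic factor, the second PAR bZIP activator. Its reads in controls were 346 and 245 (ZT2), 1032 and 926 (ZT6), 1130 and 1314 (ZT10), 685 and 1007 (ZT14), 368 and 317 (ZT18), and 289 and 165 (ZT22). Mutants had 177 and 218 reads (ZT2), 407 and 245 (ZT6), 457 and 328 (ZT10), 413 and 446 (ZT14), 276 and 222 (ZT18), and 258 and 235 (ZT22). Both mutants lay below both controls at 5 of the 6 times, with overlap at ZT22 only, and the genotypes were farthest apart between ZT6 and ZT14, when controls were high. The highest control mean, at ZT10, was 5.38-fold the lowest, at ZT22. The corresponding range in mutants, from ZT2 to ZT14, was 2.17-fold.

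Hlf (ENSMUSG00000003949, chr11:90336536-90390895, minus strand) encodes hepatic leukemia factor, the third activator of the family. Controls had 305 and 198 reads (ZT2), 390 and 329 (ZT6), 439 and 427 (ZT10), 464 and 503 (ZT14), 322 and 174 (ZT18), and 165 and 190 (ZT22). Mutants had 154 and 162 reads (ZT2), 251 and 167 (ZT6), 142 and 254 (ZT10), 241 and 213 (ZT14), 191 and 132 (ZT18), and 139 and 164 (ZT22). Both mutants were below both controls at 5 of the 6 times and overlapped with controls at ZT18, although at ZT22 the gap was 1 read. Hlf varied least over the day among the activators, 2.72-fold between the highest (ZT14) and lowest (ZT22) control means, and from 227 to 151.5 reads between the same times in mutants.

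Nfil3 (ENSMUSG00000056749, chr13:52967209-52981073, minus strand), the repressor of the D-box, was low at times when the activators were high. Control mice had 50 and 85 reads (ZT2), 4 and 21 (ZT6), 67 and 31 (ZT10), 19 and 8 (ZT14), 77 and 102 (ZT18), and 127 and 52 (ZT22). Mutants had 46 and 42 reads (ZT2), 43 and 69 (ZT6), 75 and 67 (ZT10), 116 and 56 (ZT14), 110 and 92 (ZT18), and 103 and 109 (ZT22). Controls were low at ZT6 and ZT14, where both mutants lay above both controls, while at ZT10, ZT18 and ZT22 the genotypes met or overlapped and at ZT2 both mutants were lower. Of all genes tested, 13.8% at ZT6 and 26.0% at ZT14 had both mutants above both controls, and 18.8% at ZT2 had both below. The lowest values carry a wide counting error: 4 reads in a ZT6 control have an exact 95% Poisson interval of 1.09 to 10.2 reads, and the 21 reads of the other have 13.0 to 32.1, against 31.1 to 57.9 reads for the lower of the ZT6 mutants, which the interval of the second control overlaps. These intervals cover counting alone. Control Nfil3 was not low throughout these hours, since both ZT10 controls between them held more reads.

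**Figure D1:**
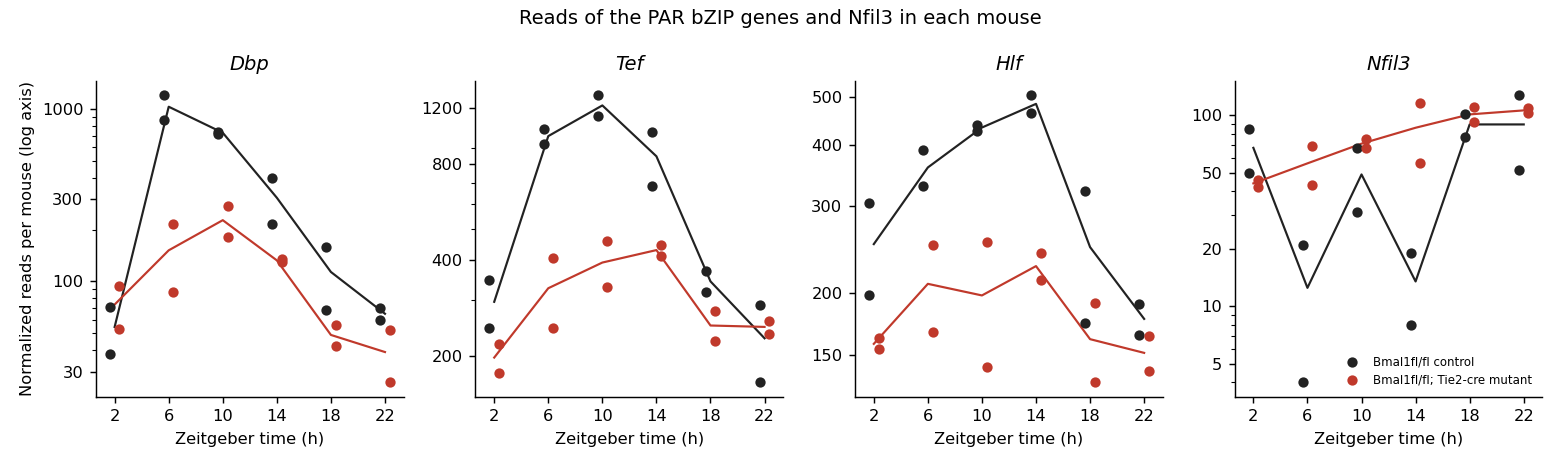
Normalized reads of each mouse (log axis, a separate scale for each gene) against zeitgeber time in hours, with black points for controls, red points for mutants and lines through the means of 2 mice. Dbp, Tef and Hlf of controls lie above the mutants from ZT6 to ZT14, while control Nfil3 is at 4 and 21 reads at ZT6 and at 19 and 8 at ZT14.

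Averaged over the day, the 3 activator genes were lower in mutants and the repressor gene did not pass the test. In the quasi-likelihood test of edgeR, with time of day as a factor and Benjamini-Hochberg adjustment over all 15493 genes tested, 3 of the 4 genes were called, all 3 of them lower, against 0.271% of all genes called and 0.116% called lower. Over the 12 mice of each genotype, Dbp had 382 ± 396 reads in controls and 112 ± 77.2 in mutants (SD, which includes the daily change), and mutants differed by -1.26 on the log2 scale (standard error 0.25, adjusted p = 0.0115). Tef had 652 ± 408 and 307 ± 99.1 reads, a difference of -0.87 (standard error 0.16, adjusted p = 0.00458). Hlf had 325.5 ± 121 and 184 ± 44.8 reads, a difference of -0.76 (standard error 0.14, adjusted p = 0.00447). Nfil3 had 53.6 ± 39.0 reads in controls and 77.3 ± 27.8 in mutants, and its log2 fold change of 0.78 (standard error 0.32) had an unadjusted p of 0.0209 and an adjusted p of 0.574 by edgeR. An unadjusted p under 0.05 was found in 6.95% of all genes. The median log2 fold change of all tested genes was 0.0033.

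Without the ZT6 and ZT18 mice the edgeR call remained for Hlf (log2 fold change -0.81, adjusted p = 0.0311) and was lost for Dbp (-0.88, adjusted p = 0.313) and Tef (-0.81, adjusted p = 0.107). One of the 2 i5 index sequences served all ZT6 and ZT18 libraries and otherwise controls of ZT2 and ZT10 only. With that index as a covariate Dbp stayed called (-1.54, adjusted p = 0.0256), whereas Tef (-0.75, adjusted p = 0.191) and Hlf (-0.70, adjusted p = 0.146) did not by edgeR. With the summed markers of 5 other cell types as covariates, added after the data were seen, Dbp (-1.40, adjusted p = 0.0105) and Tef (-0.89, adjusted p = 0.0277) stayed called and Hlf did not (-0.73, adjusted p = 0.0622, edgeR). Over all alternatives the edgeR, DESeq2 and limma adjusted p-values lay between 2.06e-13 and 0.313 for Dbp, 1.64e-11 and 0.191 for Tef, 2.18e-05 and 0.146 for Hlf, and 0.356 and 0.899 for Nfil3, with the sign of each fold change kept.

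Split by time of day, the genotype differences of the activators were largest at ZT6, ZT10 or ZT14, and that of Nfil3 at ZT6 and ZT14. At ZT6 Dbp differed by -2.74 on the log2 scale (standard error 0.44, adjusted p = 0.0201, edgeR with 12 groups), 1 of 2 genes called, or 0.0129% of all genes. At ZT10 Tef was called (-1.63, standard error 0.28, adjusted p = 0.0118, edgeR), against 0.0645% of all genes, and at ZT6 it differed by -1.54 (standard error 0.28, adjusted p = 0.0589). All controls and all mutants of ZT10, as of ZT2, differed in i5 index, which cannot be told apart from genotype there. At ZT14, where 0.232% of all genes were called, none of the 4 genes was: the log2 fold changes were -1.31 for Dbp (adjusted p = 0.282), -1.08 for Tef (0.130), -1.20 for Hlf (0.159) and 2.54 for Nfil3 (0.155) by edgeR. With 1 ZT14 mouse left out, they ranged from -1.67 to -0.80 for Dbp, -1.32 to -0.78 for Tef and -1.27 to -1.13 for Hlf.

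Hlf differed by between -1.20 at ZT14 and -0.24 at ZT22 on the log2 scale and was not called at any time by edgeR. For Nfil3 the log2 fold change was 2.18 at ZT6 (standard error 0.69, unadjusted p = 0.0038, adjusted p = 0.796, edgeR) and 2.54 at ZT14 (standard error 0.68, unadjusted p = 0.000988), whereas at ZT2, ZT10, ZT18 and ZT22 it lay between -0.58 and 0.55. The ZT14 controls had mitochondrial shares of 17.4% and 15.3% and the lowest TMM factors of all mice (0.873 and 0.896), against shares of 7.89% and 10.7% in the ZT14 mutants, and the part of this in the ZT14 differences was not tested. With the mitochondrial share as a covariate, added after the data were seen, the level difference of Nfil3 over the day was 0.51 in place of 0.78. With the marker covariates it was 0.94 and with the i5 index 1.21, and it was not called with any of these by edgeR. At ZT22 the log2 fold changes of all 4 genes were within -0.75 and 0.23, and at ZT2 that of Dbp was 0.46 (standard error 0.45). With 1 mouse of that time left out, Dbp ranged from -1.33 to -0.33 at ZT22 and from 0.02 to 0.97 at ZT2. These tests rest on 2 mice per group: leaving out the first ZT6 control or the first ZT6 mutant ended the call of Dbp (log2 fold changes of -2.48 and -2.25, edgeR adjusted p = 0.408 and 0.165), leaving out the second ZT6 mutant gave -3.50 (adjusted p = 0.0156), and leaving out any 1 of the 4 ZT10 mice ended that of Tef (adjusted p between 0.0804 and 0.223). Leaving out the first ZT6 mutant also gave a call for Tef at ZT6 (adjusted p = 0.0334, edgeR). The log2 fold change of Nfil3 at ZT6 was 1.44 without the first control and 3.78 without the second, and at ZT14 it ranged from 1.95 to 3.31 with 1 mouse left out. DESeq2 also called Tef at ZT6 (adjusted p = 0.00155), Dbp at ZT10 (0.0499), and Tef and Hlf at ZT14 (0.0152 and 0.0243).

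**Figure D2:**
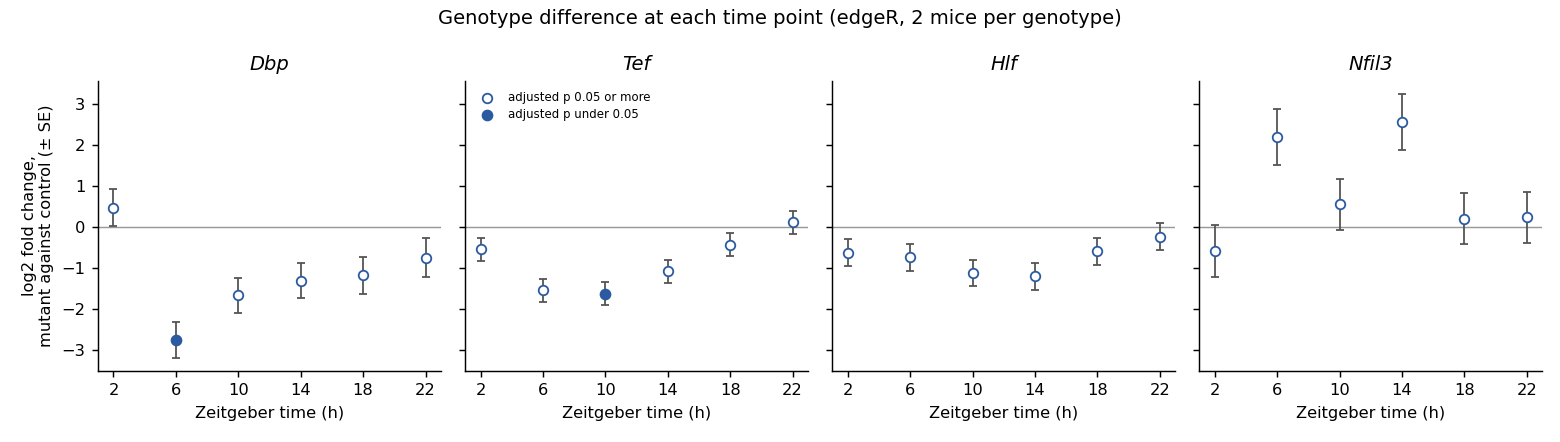
Log2 fold change of mutants against controls (vertical axis, with standard errors) at each zeitgeber time in hours, from edgeR with 2 mice in each of 12 groups; filled points had an adjusted p under 0.05. Filled points are Dbp at ZT6 (-2.74) and Tef at ZT10 (-1.63), and Nfil3 stands above 2 at ZT6 and ZT14.

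In controls the fitted cosines of the 3 activator genes peaked late in the light phase, although the highest mean was at ZT6 for Dbp, ZT10 for Tef and ZT14 for Hlf. On a log2 scale of normalized reads plus 1, the fitted cosine of Dbp had an amplitude of 2.15 ± 0.37 (standard error, n = 12) and a peak at ZT9.67 ± 0.65, that of Tef 1.36 ± 0.13 at ZT10.1 ± 0.36, and that of Hlf 0.73 ± 0.14 at ZT10.8 ± 0.71. Nfil3 had a fitted amplitude of 1.18 ± 0.51 with a peak at ZT21.1 ± 1.65, late in the dark phase, and the squared correlation of the fit was 0.373 against 0.762 to 0.925 for the activators. With edgeR's cosine test in controls, 2 of the 4 genes were called, Tef (adjusted p = 0.000675) and Dbp (adjusted p = 0.0279), against 0.0904% of all genes. The call of Tef stayed with any 1 of the 12 controls left out, while that of Dbp was lost in 6 of the 12 fits (adjusted p up to 0.102) and with the replicate number as a block (adjusted p = 0.0606, edgeR). Hlf had an unadjusted p of 0.000317 and an adjusted p of 0.153, and Nfil3 an unadjusted p of 0.106, so that 3 of the 4 were under 0.05 before adjustment, against 4.43% of all genes. By meta2d, the rhythm test used in the study, 3 of the 4 genes had p-values under 0.05 in controls, all 3 activators, against 2.43% of all genes. Their q-values (n = 12) were 0.400 for Tef, 0.822 for Hlf and 1 for Dbp, so that at the threshold of 0.6 used in the study only 1 of the 4, Tef, was under it, against 0.31% of all genes. With 1 control left out Tef was under it in 5 of 12 fits and Hlf in 1, without the second ZT18 control (q = 0.512), while the genes under it numbered 0 to 82 in place of 48.

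In mutants the fitted amplitudes were lower, again in the order Dbp, Tef and Hlf, while the peak of Tef came after that of Hlf. Dbp had an amplitude of 1.27 ± 0.19 with a peak at ZT9.51 ± 0.56, Tef 0.53 ± 0.12 at ZT11.7 ± 0.88, and Hlf 0.27 ± 0.13 at ZT10.7 ± 1.80. The fitted Nfil3 cosine had an amplitude of 0.54 ± 0.16 and a peak at ZT17.3 ± 1.16. No gene was called in mutants by edgeR's cosine test of all 12 mice, in which 645 of 15493 had unadjusted p-values under 0.05, but leaving out the first ZT6 mutant gave a call for Dbp (adjusted p = 0.0474). The edgeR p-values were 3.29e-05 for Dbp (adjusted p = 0.146), 0.00229 for Tef, 0.134 for Hlf and 0.0394 for Nfil3, so 3 of the 4 had unadjusted p-values under 0.05, against 4.16% of all genes. Nfil3 stayed under 0.05 in 4 of the 12 fits with 1 mutant left out and not with the replicate number as a block, where the count was 2 of 4. By meta2d (n = 12) 2 of the 4 had p-values under 0.05, Dbp (p = 0.00243) and Tef (p = 0.0197), against 2.27% of all genes. Tef stayed under 0.05 in 8 of the 12 fits with 1 mutant left out. A q under 0.6 was found for 0 of the 4, against 0.0387% of all genes. The q of Dbp fell under 0.6 with the filter of 10 reads in every mutant (0.590, with 43 genes under it in place of 6) and by JTK_CYCLE alone (0.587, with 56 genes).

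Without the ZT6 and ZT18 mice, a form of the cosine test added after the data were seen, Dbp and Tef were called in controls (adjusted p = 0.000675 for each) and Dbp in mutants (adjusted p = 0.0319, edgeR). Hlf was not called in either genotype (adjusted p = 0.0917 in controls), nor was Nfil3. The fitted amplitudes in controls and mutants were then 1.81 and 1.31 for Dbp, 1.26 and 0.57 for Tef, 0.70 and 0.27 for Hlf, and 1.09 and 0.72 for Nfil3 on the log2 scale. The activators then peaked between ZT10.7 and ZT11.6 in controls and between ZT9.36 and ZT13.6 in mutants, and the control peak of Nfil3 moved from ZT21.1 to ZT2.53 ± 2.03.

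The difference in rhythm between genotypes was also tested itself. In edgeR's test of the genotype by cosine and sine interaction, 0 of 15493 genes were called, 660 or 4.26% had unadjusted p-values under 0.05, DESeq2 called 1 gene and limma 0. Among the 4 genes Tef had an unadjusted p of 0.000148, while Dbp had 0.0851, Hlf 0.0935 and Nfil3 0.282 (adjusted p = 1.00 for each). When the time point was instead a factor, a form added after the data were seen, unadjusted edgeR p-values were 0.00109 for Dbp, 0.00108 for Tef, 0.0151 for Nfil3 and 0.343 for Hlf, against 5.22% of all genes under 0.05, and the lowest adjusted p of the 4 was 0.553. In the cosine and sine form without the ZT6 and ZT18 mice, the unadjusted edgeR p-values were 0.000463 for Tef, 0.0239 for Dbp, 0.0397 for Nfil3 and 0.0852 for Hlf, with a lowest adjusted p of 0.268.

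**Figure D3:**
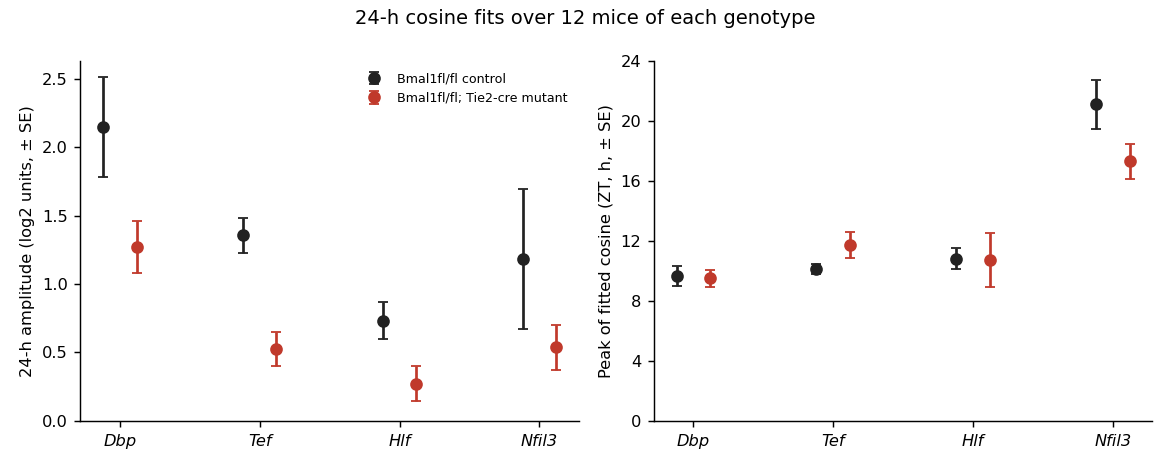
Left, amplitude of the fitted 24-h cosine on a log2 scale, and right, its peak in hours of zeitgeber time, with standard errors over 12 controls (black) and 12 mutants (red). The activators peak between ZT9.51 and ZT11.7 in both genotypes, and all 4 amplitudes are lower in mutants.

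Divided by exon length, which allows a rough comparison between genes, the mean levels of all 3 activators lay above that of Nfil3 in controls. In mutants that of Tef alone did. The lengths of annotated exon were 2993 bases for Dbp, 7867 for Tef, 6681 for Hlf and 2026 for Nfil3. Each covers all annotated exons of the gene together. Which transcripts these cells use was not determined, and the order of the genes and their ratios depend on these lengths. Mean levels in controls were 128 ± 131 reads per kb for Dbp, 83.5 ± 52.6 for Tef, 49.2 ± 19.6 for Hlf and 26.2 ± 18.9 for Nfil3 (SD, n = 12). In mutants they were 39.1 ± 12.9 for Tef, 38.1 ± 13.6 for Nfil3, 37.4 ± 25.8 for Dbp and 27.6 ± 6.90 for Hlf. Neighbours in the control order differed by less than the SD of the higher one except for Hlf above Nfil3, and no neighbours in the mutant order differed by more than that SD. Nfil3 was the lowest of the 4 in 6 of 12 controls, all of them at ZT6, ZT10 and ZT14, and the highest in 2. In mutants it was the lowest in 4 of 12 and the highest in 5 of 12, including all 4 mice of ZT18 and ZT22.

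The ratio of activator to repressor gene swung widely in controls. In the controls of ZT6 the Dbp to Nfil3 ratio per kb was 203 and 27.8, at ZT10 it was 7.44 and 15.7, and at ZT14 7.66 and 33.5. At ZT2 it was 0.961 and 0.303, at ZT18 0.598 and 1.06, and at ZT22 0.320 and 0.911. Mutant mice had ratios of 0.780 and 1.52 (ZT2), 1.37 and 2.12 (ZT6), 2.45 and 1.83 (ZT10), 0.788 and 1.57 (ZT14), 0.258 and 0.412 (ZT18), and 0.171 and 0.323 (ZT22). Every control of ZT6, ZT10 and ZT14 thus lay above every mutant, whose highest ratio was 2.45, and at the other times control ratios lay near or below 1.

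The Tef to Nfil3 ratio per kb had a median of 3.06 in controls, from 0.586 to 66.4, and of 0.954 in mutants, from 0.555 to 2.44. That of Hlf had medians of 1.92 (0.394 to 29.6) and 0.682 (0.409 to 1.77). For all 3 activators together the ratio had a median of 9.18 in controls, with a highest value of 299, and of 3.28 in mutants, with a highest value of 5.58. The ratio fell below 1 for Dbp in 5 controls and 6 mutants, for Tef in 4 and 7, and for Hlf in 3 and 7, of 12 each. Ratios at ZT6 and ZT14 in controls divide by 4 to 21 Nfil3 reads and carry the counting error of those reads, and no test was run on any ratio.

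**Figure D4:**
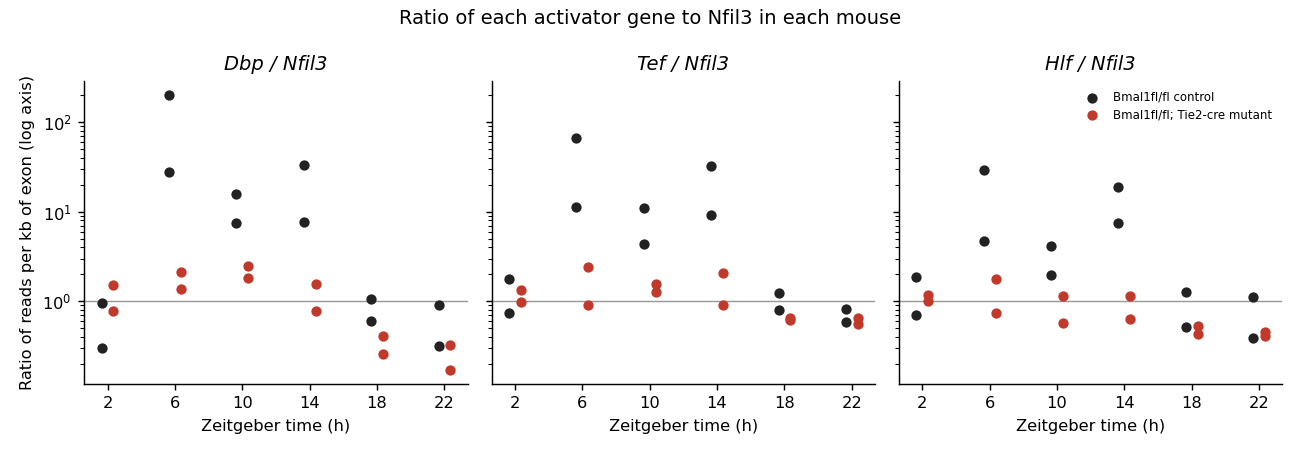
Ratio of Dbp, Tef and Hlf to Nfil3 in reads per kb of exon (log axis) in each control (black) and mutant (red) mouse against zeitgeber time in hours, with a line at 1. Control ratios of Dbp reach 203 at ZT6, while mutant ratios stay at 2.45 or below.

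Across the 12 controls the 3 activators varied together and Nfil3 against them. On the log2 scale of reads plus 1, without TMM scaling, the Pearson correlation was 0.92 for Dbp with Tef, 0.86 for Tef with Hlf, 0.69 for Dbp with Hlf, and -0.65 to -0.70 for each with Nfil3. In the 12 mutants the values were 0.55, 0.57, 0.34 and -0.27 to 0.04. These are descriptions: mice of one time point share the time of day, and the part of the time course in these values was not tested.

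The genes most like each member over the 12 controls, among 9891 genes with a mean of 50 or more reads, were sought by the correlation of log2 CPM plus 1 after TMM scaling, so that the value for a pair can differ slightly from that on unscaled reads. For Dbp they were Ciart (0.92), a repressor of the clock, Pdxk (0.92), which makes the active form of vitamin B6, and Tef itself (0.91), with -0.20, 0.61 and 0.56 in mutants. For Tef they were Dbp, the membrane protein gene Tspan4 (0.91, mutants 0.17) and Nr1d2 (0.91, mutants 0.62), which encodes REV-ERB beta. Hlf was closest to the period gene Per3 (0.91, mutants 0.69), the splicing factor gene Eftud2 (0.89, mutants 0.48) and Cnot6l (0.89, mutants 0.36), part of the mRNA deadenylase. Nfil3 was closest to the histone chaperone gene Hira (0.86, mutants -0.03), the tyrosine kinase gene Pkdcc (0.84, mutants 0.32) and Fam126b (0.84, mutants 0.26). All genes named here were picked as the highest of 9891 correlations over 12 mice. How many unrelated genes would reach such values among so many was not tested. A gene listed therefore need not follow the member it is listed for.

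Genes around the family in the clock were counted from lists. Of 15 genes described as targets of these factors or as holding D-boxes, 11 passed the filter on low counts, of which 3 were lower and 1 was higher in mutants by edgeR's level test, which called 0.271% of all genes and 0.116% as lower. The median log2 fold change of these 11 was -0.18 against 0.0033 in all genes. The 3 were Nr1d1 (-2.26, standard error 0.34, adjusted p = 0.000659), Nr1d2 (-1.90, standard error 0.21, adjusted p = 8.57e-06) and Per3 (-1.89, standard error 0.24, adjusted p = 4.18e-05), and the higher one was the repressor gene Cry1 (0.89, standard error 0.14, adjusted p = 0.000759, edgeR). Nr1d1 and Nr1d2 encode the REV-ERB repressors that act on Nfil3, and their means were 427 ± 498 and 639 ± 430 reads in controls and 69.0 ± 61.7 and 153 ± 132 in mutants (SD, n = 12). The same 4 genes were the ones called among 16 clock genes, all tested, whose median log2 fold change was -0.06.

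Of the other listed D-box genes Pdxk differed by -0.28 on the log2 scale (standard error 0.08, adjusted p = 0.136), and the efflux transporter gene Abcb1a by 0.04 (standard error 0.06, adjusted p = 0.961, edgeR). Alas1, the first enzyme of heme synthesis, and Por, the electron donor of cytochrome P450 enzymes, had -0.18 (standard error 0.09) and -0.11 (standard error 0.08) and were not called. Of 6 related C/EBP family bZIP genes 5 were tested and 0 were called, against 0.271% of all genes, with log2 fold changes from -0.30 for Cebpb to 0.11 for Ddit3. By meta2d 5 of the 11 tested D-box genes had p-values under 0.05 in controls and 0 in mutants, against 2.43% and 2.27% of all genes, and of the C/EBP genes 0 and 0. The 5 were Nr1d1, Nr1d2, Per1, Per2 and Per3, which are all clock genes too, and of the 16 clock genes 7 were under 0.05 in controls. None of the tested D-box genes outside the clock list (Pdxk, Alas1, Por and Abcb1a) was under 0.05 in either genotype.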

How the data were processed

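The authors aligned paired-end reads of strand-specific total RNA libraries to GRCm38 with STAR 2.5.3a, merged lanes with SAMtools 1.3.1 and normalized and counted them on Ensembl genes with PORT; the values they deposited are normalized counts per gene in whole numbers, used here as counts. PORT brings libraries to similar totals, so counting error can be judged only from the normalized reads. Whether counting used strand is not given in the sources used here.

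A gene was tested where at least 6 mice of 1 genotype had 5 reads or more, which kept 15493 of 53465, and the 4 genes described passed. Genotype and time came from the labels. The replicate number is the order, within each group, of the library numbers that end those labels. Level, time-point, cosine and rhythm-difference tests used edgeR 4.0.16 (R 4.3.3, TMM normalization, quasi-likelihood fit) with Benjamini-Hochberg adjustment over all genes tested and a threshold of 0.05. The meta2d method (JTK_CYCLE and Lomb-Scargle, period 24 h, Fisher's method) was written anew (Python 3.11.15, SciPy 1.17.1, NumPy 2.4.6, pandas 2.3.3). Only the edgeR level and rhythm-difference tests and meta2d were tried on simulated data. The simulated counts had less spread between mice than edgeR estimated for the real ones. Amplitudes and peaks came from a cosine fitted to log2 of TMM-normalized reads with a pseudocount of 1. Exon lengths and positions came from GENCODE M21. Plots used matplotlib 3.10.9. Alternatives used DESeq2 1.42.0, limma 3.58.1, other scalings, filters, covariates, the replicate number as a block and each mouse left out; covariates from marker genes and the mitochondrial share, the time point interaction, the cosine test without ZT6 and ZT18 and left-out mice in the time-point tests were added after seeing the data.

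The 4 genes are described in full. Of each list, genes under an adjusted p of 0.05 in the level test and Arntl are named, and for each of the 4 genes the 3 with the highest correlation in controls; Pdxk, Abcb1a, Alas1, Por, Cebpb and Ddit3 were chosen after their values were seen. The genes and lists were chosen with earlier results of these data known. Replicates are single mice. The p-values of the level test rest on the spread left by its fit. That spread holds differences between mice and also any genotype difference that changes with time of day. In the cosine tests it also holds departures of the time course from a cosine.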

Additional observations from a re-analysis of the deposited data

Results flagged for a closer look

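Tef, Dbp and Nfil3 drew attention because their course over the day differed between genotypes before adjustment. Tef had p = 0.000148 (n = 12 per genotype) in edgeR's interaction of genotype with a 24-h cosine and sine, and 0.00108 with the time point as a factor. With the time point as a factor Dbp had 0.00109 and Nfil3 0.0151. With the filter on low counts and all mice, the edgeR adjusted p of the 3 genes lay above 0.05 in both forms. With no filter, the cosine and sine form gave Dbp an unadjusted p of 0.000804 (adjusted p = 0.168) and Tef an adjusted p of 0.00372 by edgeR.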

How the results depend on the processing

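The level differences of all 4 genes kept their sign in every alternative run, and no left-out mouse ended an activator call. The calls ended without the ZT6 and ZT18 mice for Dbp (log2 fold change -0.88) and Tef (-0.81), with the i5 index as a covariate for Tef (-0.75) and Hlf (-0.70), and with marker genes of 5 other cell types as covariates for Hlf (-0.73); the causes were not tested. Genes called in level numbered 42, against 141 with no filter, 99 by DESeq2, 7 with the i5 index, 15 with the marker covariates, 27 with the mitochondrial share and 25 to 68 with a mouse left out. The rhythm difference of Tef was called with no filter only (p = 4.44e-06, n = 12 per genotype). Genes called in rhythm difference numbered 0, against 52 with no filter, 5 without ZT6 and ZT18, 11 with marker covariates, 2 with the time point as a factor, 1 each by DESeq2, with the i5 index and with the mitochondrial share, and 0 to 1 with a mouse left out.

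Replicate numbers did not pair controls with mutants of the same time: deviations of same-numbered mice correlated by between -0.01 and 0.01 over 15493 genes. That check does not cover mice of different times. The numbers are only the order of library numbers within a group. Which mice belonged to which of the 2 independent experiments of the study is not stated, so a block on these numbers need not follow them. With the replicate number as a block the level calls stayed (45 genes), edgeR's cosine test called 4 genes in controls in place of 14 and no longer Dbp (adjusted p = 0.0606), Nfil3 in mutants (n = 12) had p = 0.0531 in place of 0.0394, Tef at ZT6 was called (adjusted p = 0.0301), and 5 genes in place of 2 differed at ZT6.

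Dbp in controls (n = 12) had meta2d p = 0.0552 on TMM-rescaled counts. Lomb-Scargle alone (n = 12) gave p = 0.137 for Dbp and 0.0956 for Hlf in controls and 0.124 for Dbp and 0.185 for Tef in mutants, with 3 and 0 genes under 0.05, against 377 and 351 by meta2d and 629 and 569 by JTK_CYCLE alone. A permutation test of the cosine gave unadjusted p-values of 0.00379 for Dbp, 0.00013 for Tef, 0.00357 for Hlf and 0.127 for Nfil3 in controls. In mutants the same permutation test gave 0.00107 for Dbp, 0.0121 for Tef, 0.175 for Hlf and 0.0433 for Nfil3. With a mouse left out, meta2d p-values ranged from 0.00922 to 0.0844 for Dbp in controls, 0.00622 to 0.0832 for Tef in mutants and 0.0327 to 0.383 for Nfil3 in mutants. Those of edgeR's cosine test ranged from 0.0126 to 0.262 for Nfil3 in controls, 0.0228 to 0.298 for Hlf in mutants and 0.0154 to 0.0886 for Nfil3 in mutants, with 4 to 25 genes called in controls and 0 to 3 in mutants. Without the ZT6 and ZT18 mice that test called 34 and 30 genes, and for Nfil3 in mutants, now 8 mice, it gave an unadjusted p of 0.119 (adjusted p = 0.912, edgeR).

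At single time points DESeq2 called 16 genes at ZT2, 17 at ZT6, 36 at ZT10, 169 at ZT14 and 1 at ZT18. With a mouse of that time left out, 0 to 8 genes were called at ZT2, 0 to 5 at ZT6, 0 to 4 at ZT10, 0 to 56 at ZT14 and 0 to 16 at ZT22. With 1 ZT22 mouse left out, the log2 fold change at ZT22 ranged from -0.24 to 0.57 for Tef and from -0.27 to 1.02 for Nfil3, negative for both without the second control only. Nfil3 had no value under the filter of 10 reads in every mouse. The 4 lowest Nfil3 controls held 4 to 21 reads, which limits every ratio to Nfil3 there.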
